A study of Mus musculus with 11 samples.

Results

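The genes described here are the nuclear-encoded subunits of the oxidative phosphorylation system, measured by RNA sequencing in the mouse line WFU3, which the labels describe as prostate epithelial stem cells. They were chosen by gene symbol: names beginning Nduf (a, b, c, s or v and a number) for complex I, Sdh (a to d) for complex II, Uqcr for complex III, Cox4 to Cox8 with a letter a to c for complex IV, and Atp5 for complex V. Symbols ending in -ps, of which there were 6, were left out. The rule found 81 genes among the 48299 of the deposited count table: 36 of complex I, 4 of complex II, 8 of complex III, 16 of complex IV and 17 of complex V. A filter on low counts kept 75 of them, which are the genes tested. Since symbols chose the genes, Cyc1 and Cox4i1 fall outside the set, Ndufa4, now placed in complex IV, stands with complex I, and Atp5s and Atp5sl, which encode related mitochondrial proteins and are not subunits of the ATP synthase, stand with complex V.

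Oxidative phosphorylation makes most of the ATP of a resting epithelial cell. Complexes I and II pass electrons from NADH and succinate to ubiquinone, complex III hands them to cytochrome c, complex IV gives them to oxygen, and complex V, the ATP synthase, uses the proton gradient that complexes I, III and IV build. A few core subunits of complexes I, III, IV and V are made from mitochondrial DNA, so these complexes need matched supply from both genomes. All other subunits, with the whole of complex II, come from nuclear genes scattered over many chromosomes. Many of these nuclear genes carry promoter sites for the factors NRF1, GABP (an ETS-family factor) and YY1.

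All cells carried hairpin RNAs (shRNAs) delivered by lentivirus. The shMap3k7 group held 2 libraries with a hairpin against Map3k7, which encodes the kinase TAK1, and a control puromycin hairpin: clone 1 at passage 49 (replicate 1) and clone 7 at passage 47 (replicate 2). The shChd1 group held 2 libraries of control clone 4 with a Chd1 hairpin, construct 96526 at passage 52 (replicate 1) or 96528 at passage 50 (replicate 2). Chd1 encodes a chromatin-remodelling ATPase. The shDouble group held 4 libraries in which the same constructs, 96526 and 96528, had been put into clone 1 at passage 49 (replicates 1 and 2) and clone 7 at passage 48 (replicates 3 and 4). The shControl group held 3 libraries with control hairpins only: an unnumbered line at passage 30 with puro and neo hairpins (replicate 1), and clones 4 and 5 at passage 52 with GFP and puro hairpins (replicates 2 and 3). A Map3k7 hairpin was thus seen in 2 clones, each grown from colonies isolated with cloning cylinders. The effect of a clone cannot be told apart from that of the hairpin where both clones moved together. The labels do not say whether replicate libraries stem from different cultures. Each p-value thus speaks of the scatter of these libraries alone, some of which may be technical.

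Total counts ran from 14132371 to 23163709 per library. Map3k7 was at 43.0 and 40.1 CPM (counts scaled to library size, itself adjusted by the trimmed mean of M-values) in shMap3k7, 138 and 138 CPM in shChd1, 39.3 to 42.2 CPM in shDouble and 124 to 140 CPM in shControl. Chd1 was at 221 and 238 CPM in shMap3k7, 145 and 150 CPM in shChd1, 162 to 198 CPM in shDouble and 195 to 212 CPM in shControl, so its level was lower in shChd1 (log2 fold change -0.46, adjusted p = 0.0471, edgeR) and not past the threshold in shDouble. Epithelial markers (8 genes) summed to 10217 to 10418 CPM in shMap3k7, 2052 to 2314 CPM in shChd1, 9985 to 10550 CPM in shDouble and 3867 to 9706 CPM in shControl. Fibroblast markers (8 genes, Lum at 0 in every library) summed to 7.67 to 10.7 CPM in shMap3k7, 128 to 134 CPM in shChd1, 5.47 to 9.27 CPM in shDouble and 26.4 to 100.2 CPM in shControl. Most of the shChd1 sum was Col3a1, at 90.98 and 87.18 CPM in replicates 1 and 2. Against shControl, edgeR called 3 of the 5 fibroblast markers tested lower in shMap3k7 and 5 lower in shDouble. In shChd1 it called 0, with 3 above 0 and 2 below. Of the 8 epithelial markers it called 2 higher and 1 lower in shMap3k7. It called 0 higher and 5 lower in shChd1, and 4 higher and 2 lower in shDouble. Of all genes tested, 11.9%, 2.91% and 23.8% were called in shMap3k7, shChd1 and shDouble. The 4 immune markers found in the table never summed above 0.220 CPM, with Cd3e at 0 throughout. Endothelial markers (4 genes) summed to 38.7 CPM in shControl replicate 1, where Pecam1 was at 17.0 and Cdh5 at 18.2 CPM, and to at most 0.498 CPM elsewhere. The part of these marker differences in the values below was not tested. In such bulk libraries, fewer cells of a type and less RNA per cell cannot be told apart.

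The promoter windows of the 3 ATP synthase c-subunit genes and of Cox8a are shown first, because Atp5g1 had the largest fall and Cox8a the largest rise among the members called in the Map3k7 clones, and Atp5g2 and Atp5g3 are the paralogs of Atp5g1. The windows are RefSeq sequences of GRCm38.p6, each 300 bases from 250 before the transcript start to 50 after it, 5′ to 3′ on the gene's own strand, which is the minus strand for all 4. Capitals mark matches, on either strand, to the NRF1 motif or the ETS motif CCGGAAG. They lie at chr11:96075582-96075881 (Atp5g1), chr15:102670998-102671297 (Atp5g2), chr2:73911277-73911576 (Atp5g3) and chr19:7217567-7217866 (Cox8a).
Atp5g1: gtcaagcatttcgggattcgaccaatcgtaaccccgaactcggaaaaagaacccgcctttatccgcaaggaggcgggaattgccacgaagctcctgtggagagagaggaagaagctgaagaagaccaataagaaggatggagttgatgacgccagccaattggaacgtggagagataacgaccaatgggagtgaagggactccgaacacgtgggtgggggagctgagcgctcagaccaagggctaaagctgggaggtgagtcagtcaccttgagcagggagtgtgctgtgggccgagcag
Atp5g2: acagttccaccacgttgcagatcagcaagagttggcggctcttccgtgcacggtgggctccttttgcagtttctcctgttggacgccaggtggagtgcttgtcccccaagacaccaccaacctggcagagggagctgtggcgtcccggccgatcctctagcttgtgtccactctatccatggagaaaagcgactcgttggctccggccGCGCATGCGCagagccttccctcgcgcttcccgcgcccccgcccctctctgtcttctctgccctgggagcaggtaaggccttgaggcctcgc
Atp5g3: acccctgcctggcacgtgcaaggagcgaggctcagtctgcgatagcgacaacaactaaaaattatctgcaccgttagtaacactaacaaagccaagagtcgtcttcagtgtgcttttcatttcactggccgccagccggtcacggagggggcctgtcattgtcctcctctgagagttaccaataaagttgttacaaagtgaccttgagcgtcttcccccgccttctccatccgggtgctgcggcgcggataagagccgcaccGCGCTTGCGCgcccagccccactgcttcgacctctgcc
Cox8a: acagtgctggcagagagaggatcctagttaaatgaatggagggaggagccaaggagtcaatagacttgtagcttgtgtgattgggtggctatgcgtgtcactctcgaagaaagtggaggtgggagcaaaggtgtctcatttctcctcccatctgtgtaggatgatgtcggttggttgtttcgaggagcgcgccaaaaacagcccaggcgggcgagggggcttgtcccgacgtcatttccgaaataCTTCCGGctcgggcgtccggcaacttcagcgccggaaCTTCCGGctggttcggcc
The Atp5g2 and Atp5g3 windows each held 1 NRF1 match, beginning 42 bases before and 12 bases after the start, the Cox8a window held 2 ETS matches, and the Atp5g1 window held none of these letters.

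Among the 69 members with a RefSeq promoter window, 17 held the NRF1 motif (24.6%, against 5.19% of all 27025 genes with such windows). The ETS motif CCGGAAG stood in 16 (23.2%, against 9.93%) and the YY1 motif AAGATGGCG in 8 (11.6%, against 1.64%). A gene was counted where any of its windows held the letters. Both strands were searched. Counted by gene in the same way, 35 of the 69 members held any of these motifs (50.7%, against 15.1%). Of the 11 genes called in the Map3k7 clones in the comparisons below, none held an NRF1 or YY1 match and Ndufb6, Sdhb and Cox8a held the ETS letters. A match describes the letters only.

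Most subunits were abundant, and their median spread between libraries was below that of all genes tested. Per kilobase of exon, the highest level of each complex in shControl was that of Ndufa4 (107 CPM per kb) for the complex I symbols, Sdhd (64.8), the cytochrome b anchor of succinate dehydrogenase, for complex II, Uqcrb (82.5), a small subunit that binds ubiquinone, for complex III, Cox6a1 (313), the general isoform of subunit VIa, for complex IV, and Atp5b (292), the catalytic beta subunit, for complex V. In plain CPM, Atp5b had 1504 and 1614 in shMap3k7, 888 and 822 in shChd1, 1454 to 1571 in shDouble, and 1330, 998 and 1382 in shControl. At the other end, the isoforms of muscle and testis were silent or nearly so: Cox6a2, Cox7b2, Cox8b and Cox8c were listed at 0 in every library, Cox6b2 had 1 count in all 11, and Cox7a1 had 55 counts in all and at most 0.519 CPM. These 6 are the members that were not tested. Over the 11 libraries the median standard deviation of log2 CPM was 0.17 for the 75 subunit genes, against 0.32 for all 14346 genes tested. It was 0.27 for the 11080 other genes between the lowest and the highest member mean. That range is wide, so those genes were not matched in level to the subunits.

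**Figure D1:**
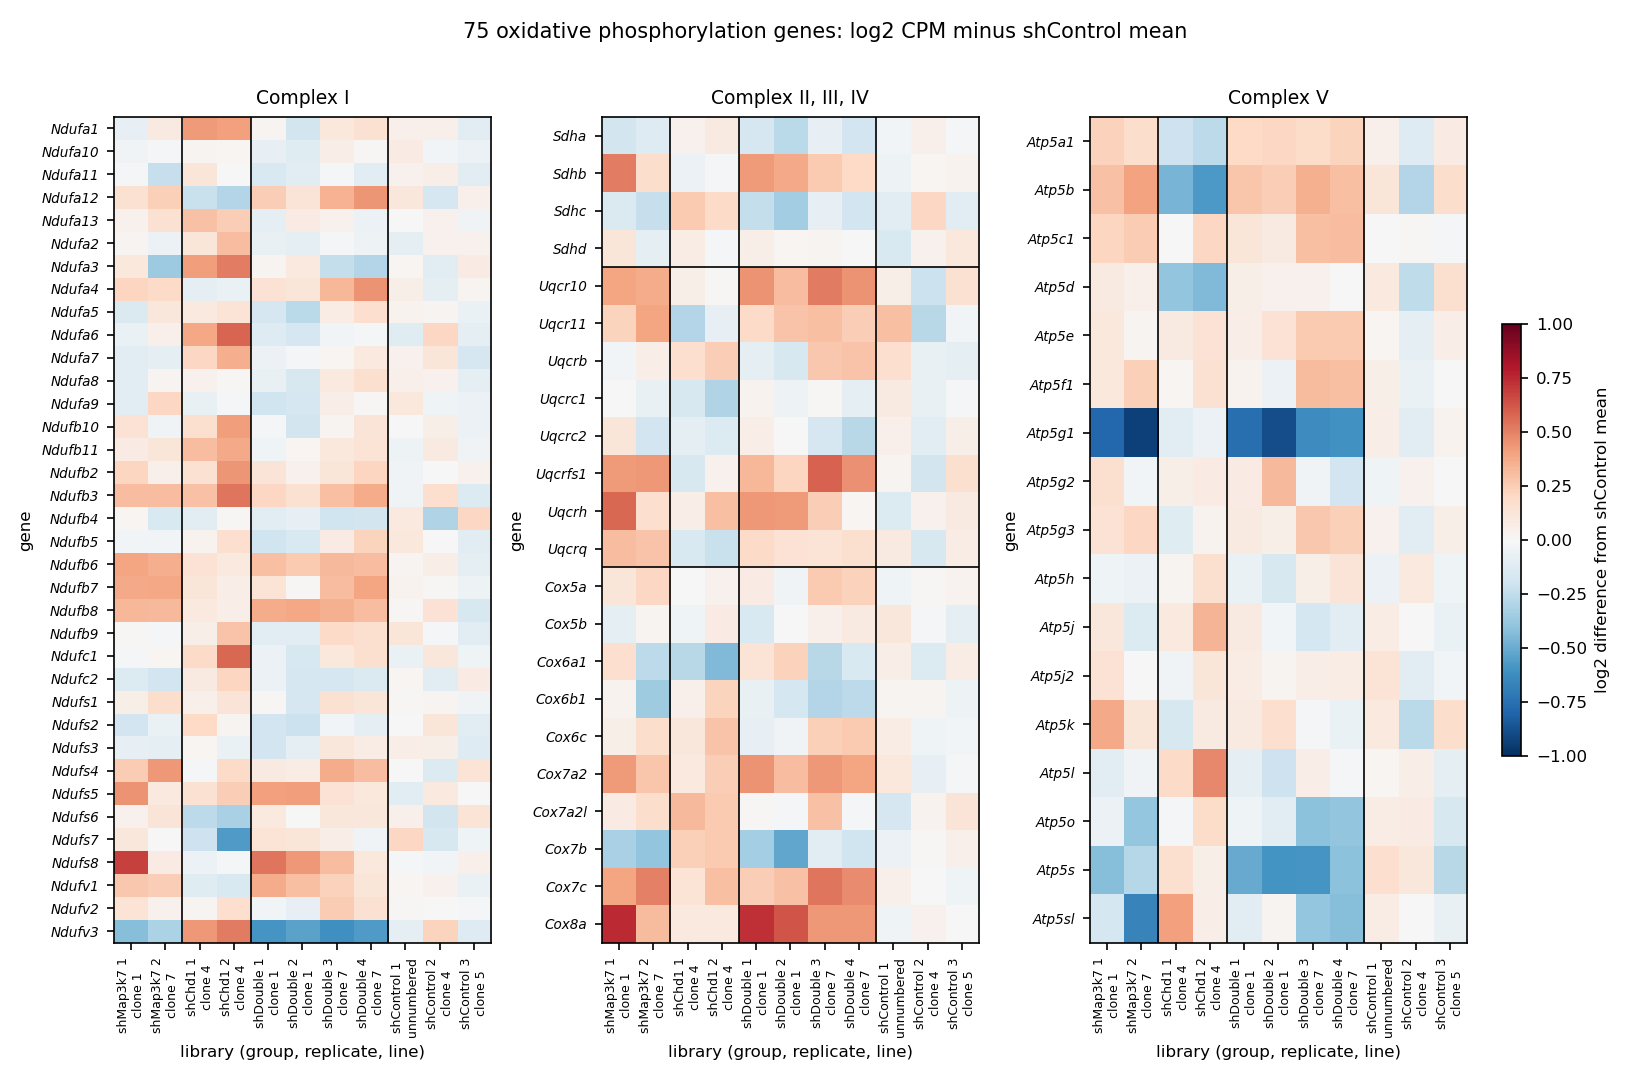
Each row is a subunit gene and each column a library. The colour is the log2 CPM minus the mean of the 3 shControl libraries, from -1 (blue) to 1 (red). Vertical lines part the groups and horizontal lines part complexes II, III and IV. Most cells are pale, and among the deepest colours are the blue row of Atp5g1 in the 6 libraries of the Map3k7 clones, Ndufv3 in shDouble, and the red cells of Cox8a and Ndufs8 in clone 1.

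In the Map3k7 clones the subunits as a set stayed near the controls, and a few rose by 0.26 to 0.56 on the log2 scale. Atp5g1 was called lower in both groups, and Ndufv3 in shDouble. The shMap3k7 libraries also lay below all controls for Ndufv3, without a call by edgeR. In shMap3k7 against shControl, 3 of the 75 were called higher and 1 lower, where 11.9% of all genes tested were called, 4.86% higher and 7.08% lower (edgeR's quasi-likelihood F-test, adjusted p under 0.05 over 14346 genes). In shDouble against shControl, 9 were called higher and 2 lower, where 23.8% of all genes were called, 10.2% higher and 13.6% lower. Both total shares, 4 and 11 of 75, lie below those backgrounds. By direction, the 9 higher calls in shDouble lie slightly above their 10.2%, and the 2 lower calls below their 13.6%. The median log2 fold change of the 75 was 0.06 in shMap3k7 and 0.04 in shDouble, against -0.01 and 0.00 over all genes. The comparisons share the shControl libraries, and shDouble was built in the shMap3k7 clones. At an unadjusted p under 0.05 there were 21 members in shMap3k7, where 29.1% of all genes were. DESeq2 called 15 members in shMap3k7, where it called 18.9% of all genes, and 16 in shDouble, where it called 27.5%. The libraries of the groups did not overlap for 35 members in shMap3k7 against shControl (42.9% of all genes) and for 25 in shDouble against shControl (32.5% of all genes).

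Atp5g1 (ENSMUSG00000006057.15, chr11:96068852-96075670, minus strand of GRCm38), one of 3 genes for the c subunit that forms the rotor ring of the ATP synthase, had 39.2 and 35.3 CPM in shMap3k7, 62.4 and 64.7 CPM in shChd1, 40.1, 36.6, 43.7 and 44.3 CPM in shDouble, and 70.7, 62.9 and 69.4 CPM in shControl. All 6 libraries of the Map3k7 clones lay below all 5 others, and clones 1 and 7 did not differ past the threshold (log2 difference -0.09 ± 0.09 SE, adjusted p = 0.474). The log2 fold change was -0.86 ± 0.11 (SE) in shMap3k7 against shControl (adjusted p = 0.00235, edgeR), a level of 0.551 times shControl. In shDouble against shControl it was -0.72 ± 0.09 (adjusted p = 0.000759), a level of 0.608 times. In shChd1 against shControl it was -0.09 ± 0.11 (adjusted p = 0.645), and the ranges overlapped. Other genes of chromosome 11 had medians of -0.05 and -0.02 in shMap3k7 and shDouble against shControl. Atp5g1 passed the threshold under all 18 alternatives run for each of these comparisons (highest adjusted p 0.0434 and 0.0343), and was the one member that still passed when the counts of each clone were summed.

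The paralogs of Atp5g1 were not called in either comparison. Atp5g3, the most abundant of the c-subunit genes, had 274 and 286 CPM in shMap3k7, 227 and 254 CPM in shChd1, 263, 259, 299 and 292 CPM in shDouble, and 255, 231 and 259 CPM in shControl. Its log2 fold change was 0.18 ± 0.10 (adjusted p = 0.270, edgeR) in shMap3k7 and 0.17 ± 0.08 (adjusted p = 0.181) in shDouble, each against shControl. Atp5g2 had 21 and 18.4 CPM in shMap3k7, 19.6 and 19.9 CPM in shChd1, 19.9, 23.7, 18.3 and 16.5 CPM in shDouble, and 18.3, 19.4 and 18.9 CPM in shControl, with overlapping ranges in the clones and shControl. The mature c subunit made from these genes is the same protein, and the genes differ in the presequence that is cut off on import. The summed level of the 3 genes was 337 ± 3.88 CPM (SD, n = 2) in shMap3k7, 324 ± 20.6 (n = 2) in shChd1, 339 ± 21.1 (n = 4) in shDouble and 334 ± 18.8 (n = 3) in shControl, which differ by less than the spread between libraries. Within that sum the share of Atp5g1 was 11.7% and 10.4% in shMap3k7, 20.2% and 19.1% in shChd1, 12.4%, 11.5%, 12.1% and 12.5% in shDouble, and 20.2% ± 0.305 (SD, n = 3) in shControl, with no overlap between the Map3k7 clones and the others. Shared reads are divided between similar genes in the deposited estimates. Atp5g1 had whole counts in 9 of the 11 libraries, and Atp5g2 had fractional counts in all 11.

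**Figure D2:**
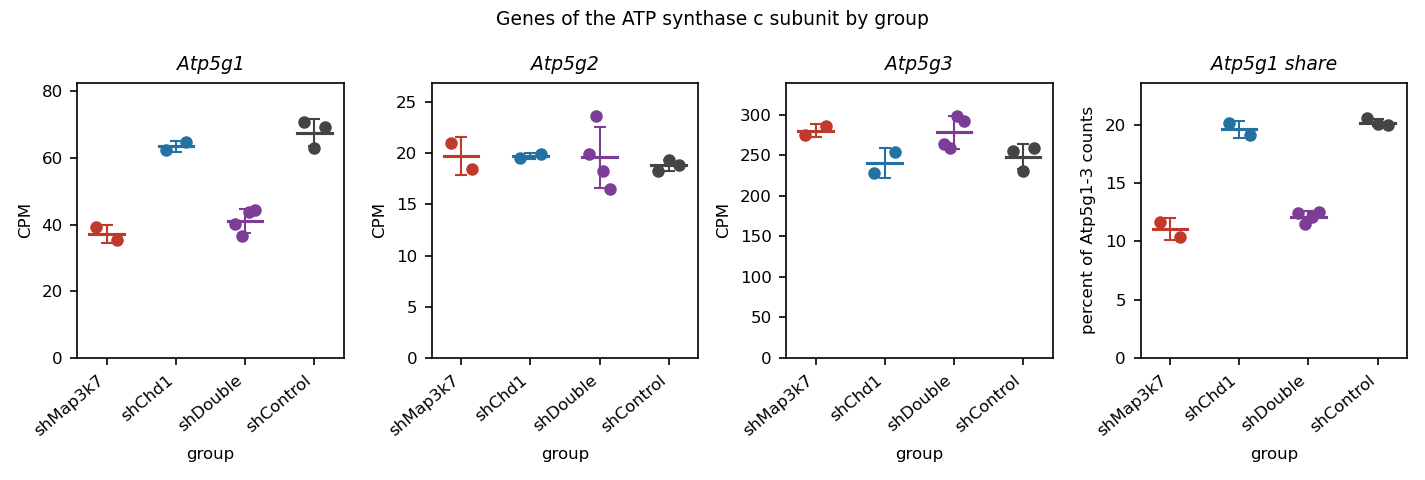
The first 3 panels give the level of each c-subunit gene in CPM, and the last the share of Atp5g1 in the summed counts of the 3 genes in percent. Each point is a library, the long bar is the group mean and the whisker 1 SD. Atp5g1 sits between 35.3 and 44.3 CPM in shMap3k7 and shDouble and between 62.4 and 70.7 CPM in shChd1 and shControl, while Atp5g3 sits at 227 to 299 CPM in all groups.

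Of the complex IV genes, which build the enzyme that reduces oxygen, Cox8a, Cox7c and Cox7a2 were higher in the clones. Cox8a (chr19:7215153-7217616), the general isoform of a small membrane subunit, had 241 and 179 CPM in shMap3k7, 154 and 154 CPM in shChd1, 239, 222, 194 and 195 CPM in shDouble, and 140, 148 and 144 CPM in shControl. Every library of the Map3k7 clones was above every other, and the clone 1 libraries were above those of clone 7. The log2 fold change was 0.55 ± 0.13 in shMap3k7 (adjusted p = 0.0268, edgeR) and 0.56 ± 0.11 in shDouble (adjusted p = 0.00661) against shControl. The other genes of chromosome 19 had medians of 0.36 and 0.39 in the same comparisons, and with each chromosome centred per library Cox8a was at 0.19 and 0.20 and no longer passed. Cox7c (chr13:86044816-86046904), another small membrane subunit, had 142 and 153 CPM in shMap3k7, 119 and 133 CPM in shChd1, 128, 133, 157 and 150 CPM in shDouble, and 112, 108 and 105 CPM in shControl. It rose by a log2 fold change of 0.45 ± 0.11 (adjusted p = 0.0268) in shMap3k7 and 0.39 ± 0.09 (adjusted p = 0.0133, edgeR) in shDouble, and passed with chromosomes centred as well. Cox7c and Ndufb6 had fractional counts in all 11 libraries, that is, reads that the estimation divided between sequences, so their levels are uncertain to that extent. Cox7a2, the general isoform of subunit VIIa, had 29.2 and 26.3 CPM in shMap3k7, 23.2 and 25.7 CPM in shChd1, 29.6, 26.9, 29.3 and 28.5 CPM in shDouble, and 23.3, 20.5 and 21.3 CPM in shControl. It was called in shDouble (0.40 ± 0.09, adjusted p = 0.0123, edgeR) and not in shMap3k7 (0.36 ± 0.11, adjusted p = 0.0591). DESeq2 did call Cox7a2 in shMap3k7, as did edgeR with chromosomes centred. Cox7b, a further small subunit, lay below shControl in all 6 clone libraries, at 55.3 and 52.8 CPM in shMap3k7 and 48.4 to 64.5 CPM in shDouble, against 66.7 to 71.9 CPM in shControl, and passed in neither comparison by edgeR (adjusted p = 0.0760 and 0.0617). It was called lower in both by DESeq2, and in both by edgeR with chromosomes centred.

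Complex III, which hands electrons to cytochrome c, had the highest median of the complexes, 0.29 in shMap3k7 and 0.20 in shDouble against shControl, with 6 of its 8 genes above 0 in each. By edgeR none was called in shMap3k7 (4 had an unadjusted p under 0.05) and 2 were called higher in shDouble. In shMap3k7, DESeq2 called Uqcr10, Uqcrfs1 and Uqcrq higher, as did edgeR with chromosomes centred, and limma voom called none of the complex. Uqcrfs1, the Rieske iron-sulfur protein that takes electrons from ubiquinol, had 120 and 121 CPM in shMap3k7, 80.2 and 92.1 CPM in shChd1, 112, 104, 135 and 123 CPM in shDouble, and 91.3, 78.6 and 99.7 CPM in shControl. Its log2 fold change in shDouble was 0.40 ± 0.11 (adjusted p = 0.0297, edgeR), and all 4 libraries lay above the 3 controls. Uqcr10, a small subunit beside it, had 46.7 and 45.9 CPM in shMap3k7, 37.0 and 35.9 CPM in shChd1, 48.7, 44.0, 51.1 and 48.6 CPM in shDouble, and 37.1, 30.7 and 39.6 CPM in shControl. It was called in shDouble (0.43 ± 0.10, adjusted p = 0.0133, edgeR). With chromosomes centred the values of Uqcrfs1 and Uqcr10 were 0.38 and 0.43, and both passed. Uqcrfs1 lost the call when shDouble replicate 3 or 4 or shControl replicate 1 or 2 was left out.

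Among the 36 complex I genes, 1 was called in shMap3k7 and 4 in shDouble. Ndufb6, an accessory subunit of the membrane arm, had 65.7 and 64.5 CPM in shMap3k7, 55.3 and 53.5 CPM in shChd1, 61.5, 59.9, 62.5 and 62.0 CPM in shDouble, and 51.0, 52.4 and 46.7 CPM in shControl. The log2 fold change was 0.38 ± 0.09 in shMap3k7 (adjusted p = 0.0201, edgeR) and 0.30 ± 0.07 in shDouble (adjusted p = 0.0150). With chromosomes centred the values were 0.19 and 0.10, no longer called. Ndufv3, a small subunit of the NADH-oxidising module, was the 1 complex I gene called lower: 31.0 and 33.5 CPM in shMap3k7, 56.4 and 60.0 CPM in shChd1, 27.7, 28.8, 27.3 and 28.1 CPM in shDouble, and 39.3, 48.7 and 38.1 CPM in shControl. Its log2 fold change was -0.59 ± 0.10 in shDouble (adjusted p = 0.00276, edgeR) and -0.38 ± 0.12 in shMap3k7 (adjusted p = 0.0632) against shControl. DESeq2 called it lower in shMap3k7 too. The shMap3k7 and shDouble libraries lay below all controls and the shChd1 libraries above them. Ndufv1, which binds the flavin that accepts electrons from NADH, and Ndufb8, a membrane-arm subunit, were called higher in shDouble (0.26 ± 0.08 and 0.35 ± 0.08, adjusted p = 0.0374 and 0.0131, edgeR). Both lie on chromosome 19, where they are joined by Ndufs8. With chromosomes centred Ndufv1 was at -0.10 and Ndufb8 at 0.00. Ndufv1 also lost the call when any library of shMap3k7, shChd1 or shControl, or shDouble replicate 1, 2 or 3, was left out.

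Complex II, the succinate dehydrogenase that also works in the TCA cycle, had medians of -0.07 and -0.08 in shMap3k7 and shDouble. Sdhb, its iron-sulfur subunit, had 92.2 and 72.7 CPM in shMap3k7, 61.9 and 63.7 CPM in shChd1, 86.8, 83.9, 77.4 and 74.0 CPM in shDouble, and 62.2, 65.4 and 65.9 CPM in shControl. It was called in shDouble (0.32 ± 0.10, adjusted p = 0.0373, edgeR), and lost the call when any library of shChd1 or shControl, or shDouble replicate 1, 2 or 3, was left out. Other genes of chromosome 4 had a median of 0.21, and with chromosomes centred Sdhb was at 0.12 and not called. Sdha, the flavoprotein, had 218 and 227 CPM in shMap3k7, 256 and 264 CPM in shChd1, 205 to 235 CPM in shDouble and 243 to 257 CPM in shControl. It passed in no comparison with shControl by edgeR, and DESeq2 called it lower in shDouble.

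**Figure D3:**
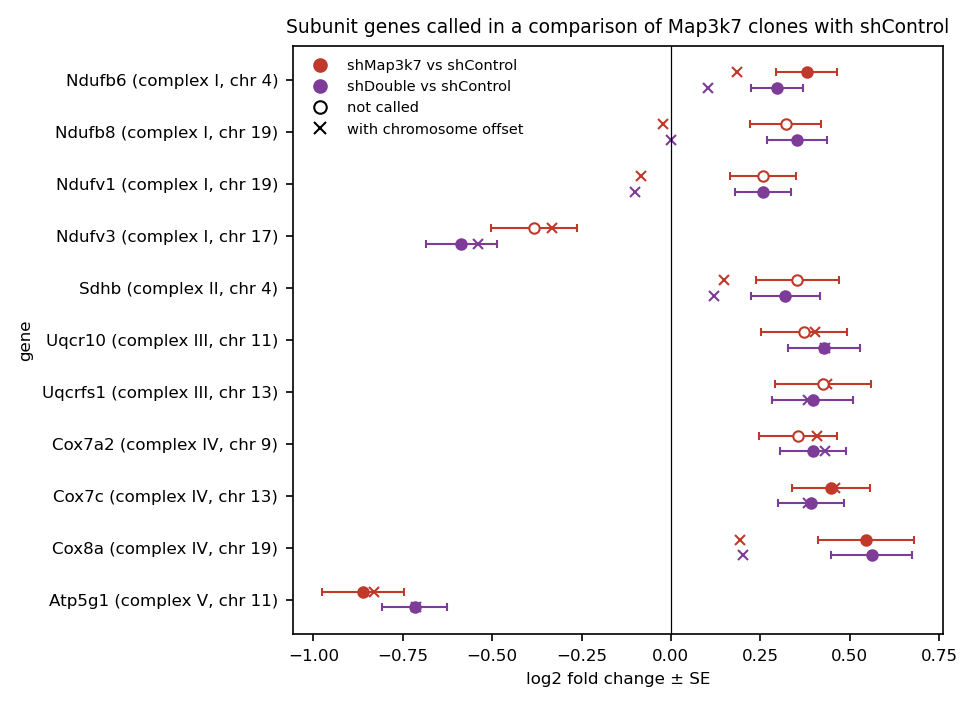
Log2 fold change ± SE of the 11 subunit genes called in a comparison of Map3k7 clones with shControl, shMap3k7 above shDouble for each gene. Filled circles passed an adjusted p of 0.05, open circles did not, and crosses give the value with each chromosome centred per library. Ndufb8, Ndufv1, Sdhb, Ndufb6 and Cox8a move towards or past 0 with centring, while Uqcr10, Uqcrfs1, Cox7a2, Cox7c, Ndufv3 and Atp5g1 stay within 0.1 of their values.

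The 21 genes listed as core catalytic subunits take in Atp5g1, although its c subunit belongs to the rotor ring. Of these 21, 3 rose (Ndufv1, Sdhb and Uqcrfs1) and 1 fell (Atp5g1) in shDouble, where 23.8% of all genes were called. In shMap3k7 1 fell (Atp5g1), where 11.9% of all genes were called. Both shares lie below those of all genes. With chromosomes centred, Ndufv1 and Sdhb lost their calls in shDouble, while Uqcrfs1 and Atp5g1 kept theirs. Leaving out Atp5s and Atp5sl changed none of the counts called against shControl. The calls in shMap3k7 rest on few libraries: Ndufb6 lost its call without shMap3k7 replicate 1 or 2, Cox7c without those or without shControl replicate 2 or 3, and Cox8a without shMap3k7 replicate 1 or shControl replicate 1 or 2. With counts summed per clone, which leaves 2 values for each of shDouble and shMap3k7, Atp5g1 alone passed in each comparison.

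With the Chd1 hairpins in control clone 4 no subunit passed the edgeR test. In shChd1 against shControl edgeR called 0 of the 75, where 2.91% of all genes were called. At an unadjusted p under 0.05 there were 20 of the 75, against 25.1% of all genes, and DESeq2 called 10 (7 higher, 3 lower), where it called 13.5% of all genes, and limma voom 0. The libraries of the groups did not overlap for 39 members, against 46.4% of all genes. The median log2 fold change was 0.09, against -0.01 over all genes, and 53 of 75 values were above 0. Complex I had a median of 0.11 and complex III of -0.09. With clone 4 compared within itself (the line as a replicate block) there were 0 calls and the same median of 0.09.

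The members described next were chosen after their values were seen: Atp5a1, Atp5b, Atp5d, Ndufa6 and Ndufv3. None passed in edgeR, DESeq2 called all 5, and with chromosomes centred edgeR called Ndufa6 and Ndufv3. Atp5b, given above, was lower in both shChd1 libraries than in any control (-0.53 ± 0.13, adjusted p = 0.0539, edgeR), and the lowest control was clone 4. Atp5d, the delta subunit of the central stalk, had 99.9 and 96.4 CPM in shChd1 against 140, 110 and 146 CPM in shControl (-0.43 ± 0.12, adjusted p = 0.0718), again with clone 4 as the lowest control. Atp5a1, the alpha subunit beside Atp5b in the head, had 684 and 660 CPM in shChd1 against 818, 724 and 836 CPM in shControl (-0.24 ± 0.08, adjusted p = 0.114). Other subunits of the head and stalks lay slightly above shControl and were not called by edgeR, at log2 fold changes of 0.10 for Atp5c1 (gamma), 0.12 for Atp5e (epsilon) and 0.08 for Atp5f1 (the b subunit of the peripheral stalk), and 11 of the 17 complex V genes were above 0, with a median of 0.08. Atp5b and Atp5d lie on chromosome 10, whose other genes had a median of -0.23, and Atp5a1 lies on chromosome 18, with a median of 0.08. Ndufa6, an accessory subunit of the matrix arm, had 31.4 and 36.1 CPM in shChd1 against 22.2, 27.8 and 22.5 CPM in shControl (0.48 ± 0.13, adjusted p = 0.0666), and Ndufv3 stood at 0.47 ± 0.12 (adjusted p = 0.0590). Without shControl replicate 2, the clone 4 control, 8 members were called: Atp5a1, Atp5b, Atp5d, Ndufa6, Ndufb11, Ndufb3, Ndufs6 and Ndufv3. The share of all genes called in that fit is not given here, so the 8 cannot be set against it.

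Between the Map3k7 clones with and without a Chd1 hairpin no subunit passed the test. In shDouble against shMap3k7 edgeR called 0 of the 75 (0% of all genes), 0 had an unadjusted p under 0.05 (0.802% of all genes), and DESeq2 and limma voom called 0. The values ran from -0.21 to 0.19 with a median of -0.01. Within a clone, no member of any shDouble library departed by more than 0.5 on the log2 scale from the shMap3k7 library of that clone, and the medians were -0.06 and -0.10 in clone 1 and 0.06 and 0.03 in clone 7. Within clone 4, the medians of the shChd1 libraries against the clone 4 control were 0.05 and 0.14, and Ndufa3, a small accessory subunit of complex I, was the member furthest up (0.52 and 0.62).

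The interaction, that is, the change with a Chd1 hairpin in the Map3k7 clones minus that in the controls, was called in 0 of 75 members by edgeR (0% of all genes). At an unadjusted p under 0.05 there were 8, against 13.9% of all genes. DESeq2 called 1 (3.42% of all genes), Ndufv3, with an edgeR value of -0.67 ± 0.16 (adjusted p = 0.185), and limma voom 0. Without shControl replicate 2 edgeR called 4 (Atp5b, Atp5d, Ndufa6 and Ndufv3), again with no share of all genes to set beside them.

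The libraries with Map3k7 and Chd1 hairpins together and those with Chd1 hairpins alone gave the most calls of these comparisons: 15 members were called higher and 17 lower in shDouble against shChd1, where 44.8% of all genes were called, 22.6% higher and 22.2% lower. This comparison sets the pair of Map3k7 clones against the single clone 4. In complex V, Atp5b was higher (0.81 ± 0.12, adjusted p = 0.000657, edgeR) and Atp5g1 lower (-0.63 ± 0.10, adjusted p = 0.00100). In complex I, Ndufv3 was lower (-1.06 ± 0.11, adjusted p = 0.000106), and so was Ndufa6 (-0.58 ± 0.12, adjusted p = 0.00343). In complex II, Sdhc, a membrane anchor, was lower and Sdhb higher (-0.44 ± 0.12 and 0.36 ± 0.11, adjusted p = 0.0112 and 0.0240). In complex III, 4 of 8 were higher and 0 lower, with the smallest p for Uqcrq and Uqcrfs1 (0.34 ± 0.09 and 0.46 ± 0.13, adjusted p = 0.0113 and 0.0161). In complex IV, Cox7b was lower and Cox8a higher (-0.53 ± 0.11 and 0.47 ± 0.13, adjusted p = 0.00332 and 0.0145). The count of members called was 14 without shChd1 replicate 1 and 7 without shChd1 replicate 2. With the 2 shChd1 libraries summed into 1 sample, which is then assumed to vary like the other groups, 1 member passed (Ndufv3).

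**Figure D4:**
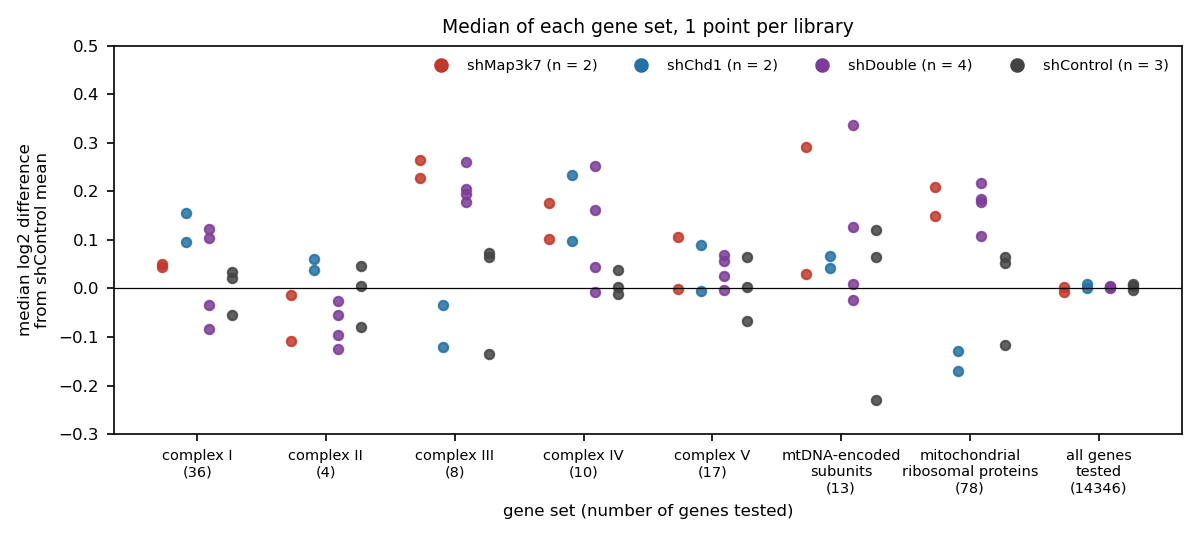
Each point is the median over a gene set of the log2 CPM minus the shControl mean in 1 library. Sets are the 5 complexes, the subunits encoded in mitochondrial DNA, the mitochondrial ribosomal proteins and all genes tested, with the number of genes tested in brackets. Complex III and the mitochondrial ribosomal proteins lie above 0 in all 6 libraries of the Map3k7 clones and below 0 in both shChd1 libraries, and in shControl clone 4, whereas the median of all genes lies within 0.01 of 0 in each library.

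Clones 1 and 7 each carry a Map3k7 hairpin, whose construct the sample labels do not number, and their subunit levels differed gene by gene. In clone 1 against clone 7 (a model with a mean for each line), 11 members were called higher and 6 lower, where 27.6% of all genes were called, 15.4% higher and 12.2% lower, and the median was -0.08. The count was 5 without shDouble replicate 1, 7 without shDouble replicate 4, 10 without shDouble replicate 2 or 3, and 9 without either shMap3k7 library. Higher in clone 1 were Ndufs5, Sdhb and Uqcrh on chromosome 4, Cox6a1 on chromosome 5, Ndufa3, Uqcrc2, Cox6b1 and Atp5sl on chromosome 7, Atp5o on chromosome 16, and Ndufs8 and Cox8a on chromosome 19. The other genes of these chromosomes had medians of 0.23, 0.24, 0.30, 0.27 and 0.18. Cox6a1 had 246 CPM in shMap3k7 clone 1 and 241 and 257 CPM in shDouble clone 1, against 182 CPM in shMap3k7 clone 7 and 181 and 197 CPM in shDouble clone 7 (0.41 ± 0.07, adjusted p = 0.00276, edgeR). Uqcrc2, a core protein of complex III, had 156, 151 and 144 CPM in clone 1 against 126, 128 and 119 CPM in clone 7 (0.27 ± 0.06, adjusted p = 0.00966). Atp5o, the stalk subunit named for its oligomycin sensitivity, had 113, 115 and 110 CPM in clone 1 against 90.3, 89.2 and 89.9 CPM in clone 7 (0.33 ± 0.07, adjusted p = 0.00778). The clone 1 and clone 7 ranges did not overlap for any of these. Uqcrc2 had fractional counts in 10 libraries and Atp5o in 5. Lower in clone 1, by log2 differences of -0.21 to -0.32, were 6 members. These were Ndufa5 and Ndufa9 on chromosome 6, Ndufa8 on 2, Uqcrb on 13, Cox6c on 15 and Atp5f1 on 3. Medians of the other genes there were -0.10, -0.08, -0.18, -0.06 and -0.09.

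Across the 75 genes the difference between the clones went with that of the other genes on the same chromosome (Pearson r = 0.79, a description across genes that share libraries and chromosomes). With each chromosome centred per library, 2 members were called (14.9% of all genes), neither of them among the 17: Ndufb6 and Atp5g2. The standard deviation of the 75 values was 0.19 before and 0.11 after subtracting the chromosome median. With the same centring 8 members were called in shMap3k7 against shControl (12.9% of all genes; Cox7c and Atp5g1 among those called before), 9 in shDouble against shControl (25.1%; 6 of the 11 called before), 3 in shChd1 against shControl (4.82%; Ndufa3, Ndufa6 and Ndufv3), and 28 in shDouble against shChd1 (47.3%; 20 of the 32 called before). The r without centring was 0.54 in shMap3k7 against shControl, 0.50 in shChd1 against shControl and 0.52 in shDouble against shControl. On chromosome 10 the other genes stood at -0.21 and -0.21 in the 2 shChd1 libraries and -0.14 in shControl clone 4, relative to the shControl mean, and at 0.06 to 0.14 in the 6 libraries of the Map3k7 clones, and its 5 members, Ndufa12, Ndufs7, Uqcr11, Atp5b and Atp5d, had log2 fold changes of -0.20 to -0.53 in shChd1 against shControl. In shDouble against shControl the other genes of chromosomes 4, 7 and 19 had medians of 0.21, -0.24 and 0.39. What lies behind these shifts of whole chromosomes was not tested.

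**Figure D5:**
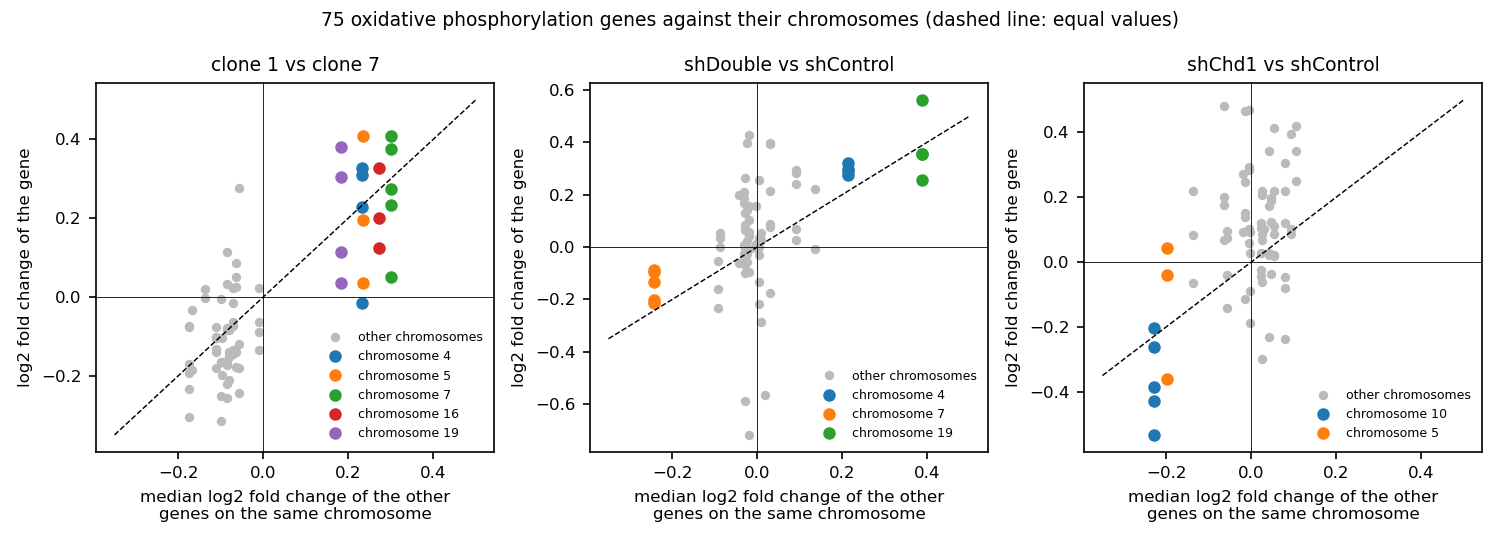
Each point is a subunit gene. The horizontal axis gives the median log2 fold change of the other genes on its chromosome and the vertical axis its own log2 fold change. Coloured points are some of the chromosomes whose other genes were shifted. In clone 1 against clone 7 the genes of the 5 coloured chromosomes lie to the right. In shDouble against shControl those of chromosomes 4 and 19 lie to the right and those of chromosome 7 to the left. In shChd1 against shControl the 5 genes of chromosome 10 lie to the lower left. The 3 genes of chromosome 5, also coloured there, had a median of -0.04 (-0.36 to 0.04), where its other genes stood at -0.20.

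The rest of the mitochondrial programme gave the counts below, to be read against the shares of all genes tested. Of all genes, edgeR called 4.86% higher and 7.08% lower in shMap3k7, and 10.2% higher and 13.6% lower in shDouble, against shControl. In shChd1 against shControl 2.91% were called, and 12.2% were called lower in clone 1 than in clone 7. The 13 subunits encoded in mitochondrial DNA summed to 18070 and 21003 CPM in shMap3k7, 16640 to 18410 CPM in shChd1, 16889 to 21371 CPM in shDouble and 14863 to 18172 CPM in shControl. None was called against shControl by edgeR (4, 3 and 3 at an unadjusted p under 0.05 in shMap3k7, shChd1 and shDouble), and 7 were lower in clone 1 than in clone 7, among them mt-Nd2 (-0.45 ± 0.07, adjusted p = 0.00269) and mt-Nd3 (-0.58 ± 0.09, adjusted p = 0.00255). These transcripts were read from oligo(dT)-selected RNA. Of 78 mitochondrial ribosomal protein genes, 6 rose in shMap3k7, 0 in shChd1 and 16 in shDouble, and 0 fell in each, with medians of 0.17, -0.15 and 0.18. The 16 included Mrpl9 (0.54 ± 0.08, adjusted p = 0.00132, edgeR) and, on chromosome 19, Mrpl11, Mrpl21 and Mrpl49. Of 49 assembly factors, 1 rose in shMap3k7 and 3 in shDouble (Cox15 and Sdhaf2 on chromosome 19, and Ndufaf4 on chromosome 4). With chromosomes centred, 0 assembly factors were called in shMap3k7, and 0 higher and 2 lower in shDouble. Of 18 enzymes of pyruvate oxidation and the TCA cycle, 1 rose in shMap3k7 (Pdhb), and 2 rose (Pdhb and Cs) and 2 fell (Idh2 and Idh3g) in shDouble. Cycs, the cytochrome c that carries electrons between complexes III and IV, had 152 and 164 CPM in shMap3k7, 86.7 and 84.3 CPM in shChd1, 121 to 179 CPM in shDouble, and 112, 89.7 and 109 CPM in shControl. It rose in shMap3k7 and shDouble (log2 fold change 0.61 ± 0.16 and 0.55 ± 0.14, adjusted p = 0.0389 and 0.0191, edgeR). Of subunits outside the symbol rule, Usmg5 of the ATP synthase, on chromosome 19, rose in shMap3k7 and shDouble (0.62 ± 0.11 and 0.53 ± 0.10, adjusted p = 0.00932 and 0.00376), and Cyc1, the haem subunit of complex III, fell in shChd1 (-0.44 ± 0.10, adjusted p = 0.0459). Among 16 regulators and replication factors of mitochondria, Pprc1, a coactivator of the PGC-1 family, had 224 and 199 CPM in shMap3k7, 108 and 100.2 CPM in shChd1, 224 to 237 CPM in shDouble and 146 to 160 CPM in shControl. It rose in shMap3k7 and shDouble (0.49 ± 0.09 and 0.61 ± 0.08) and fell in shChd1 (-0.54 ± 0.09), with adjusted p = 0.0100, 0.000702 and 0.0286 by edgeR. It lies on chromosome 19, as does Twnk, the mitochondrial DNA helicase, which rose in shMap3k7 and shDouble (0.52 ± 0.10 and 0.59 ± 0.08, adjusted p = 0.0100 and 0.00113). With chromosomes centred, Pprc1 was at 0.14 in shMap3k7 and 0.25 in shDouble, and passed in shDouble, whereas Twnk and Usmg5 passed in neither. Ppargc1a, which encodes the coactivator PGC-1α, was near the detection limit, at 0.0724 to 0.325 CPM in shMap3k7, 0.948 and 1.56 CPM in shChd1, 0 to 0.505 CPM in shDouble and 0.624 to 1.37 CPM in shControl, where 3 counts are 0.130 to 0.212 CPM.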

How the data were processed

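Poly(A) RNA of 11 libraries was sequenced 24 h after plating. Per the submitters' processing notes, reads were handled with Bowtie2 and RSEM 1.3.1 on GRCm38, and the authors deposited RSEM expected counts per gene. Which annotation and strand setting they used is not stated in what was available. The estimates were rounded to whole numbers. Between 7.83% and 9.11% of the values of a library were not whole before rounding. A second, normalized table was not used. Genes were kept by filterByExpr (minimum count 10, minimum total 15), which left 14346. Libraries were scaled by the trimmed mean of M-values in edgeR 4.0.16 (R 4.3.3), and 4 group means were fitted to all 11 libraries and tested by quasi-likelihood F-test, with p-values adjusted by Benjamini-Hochberg over all genes. A model with a mean per line (5 lines) gave clone 1 against clone 7. Total counts per library ran from 14132371 to 23163709, so that 3 counts are 0.130 to 0.212 CPM, a floor that covers counting error only. Alternatives were DESeq2 1.42.0, limma 3.58.1 (voom), other size factors, no filter, each chromosome centred per library, only the groups compared, counts summed per line, the line as a replicate block, and each library left out.

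Named genes were, against shControl, every called member up to 12, in other comparisons up to 2 called members per complex, the member of highest level per length in each complex, the members that failed the filter, the core catalytic subunits, and up to 4 called genes of other lists. Atp5d, Ndufa6 and Ndufa3 in shChd1, Cox7b, Atp5g2, Atp5g3 and Ppargc1a were named after their values were seen. The members and lists were chosen with earlier results of these data known. Gene positions are from GENCODE M21 (GRCm38), matched by symbol. Lengths are the union of exons. The numbers pair no libraries, but libraries of a clone are paired by design: the difference between clones 1 and 7 in shDouble correlated with that in shMap3k7 at r = 0.57 across 14346 genes.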

Additional observations from a re-analysis of the deposited data

Results flagged for a closer look

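In the 4 shDouble libraries, each of the 75 tested genes was examined for 1 library standing apart (gap to the nearest library, over the whole range, above Dixon's 95% critical value, which chance exceeds in about 1 of 20 groups). There were 2 such values among the 75 genes, a share below 1 of 20. Ndufs6, an iron-sulfur module subunit of complex I, had 57.4 CPM in shDouble replicate 2, against 61.5, 62.2 and 62.3 CPM in the other shDouble libraries. Cox7a2l, which encodes a factor that joins complexes III and IV in supercomplexes, had 73.2 CPM in shDouble replicate 3, against 60.0, 58.7 and 58.7 CPM in the others. Neither gene was called in shDouble against shControl.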

How the results depend on the processing

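Of the results that answer a comparison, 218 values kept their direction and side of the threshold and 34 did not. The count of members called in shMap3k7 against shControl was 15 with DESeq2, 8 with chromosomes centred, and 1 with counts summed per line or with only the 2 groups compared. In shChd1 against shControl it was 10 with DESeq2, 3 with chromosomes centred and 1 with no low-count filter (Atp5b). In shDouble against shControl it was 1 with counts summed per line, and in shDouble against shChd1 it was 1 with counts summed and 21 with no filter. DESeq2 called 1 member in the interaction and 9 between the clones, where centring left 2 and a median of -0.0206. Centring turned the sign of Ndufb8 (-0.0004) and Ndufv1 (-0.10) in shDouble against shControl. Using the longest transcript for length gave 120, 128, 354 and 646 CPM per kb for Ndufa4, Uqcrb, Cox6a1 and Atp5b, and put Sdha (85.5) above Sdhd (64.8) in complex II. The cause of these changes was not tested.

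With each library left out in turn, members called numbered 1 to 6 in shMap3k7 against shControl (medians 0.0338 to 0.0965), 0 to 8 in shChd1 against shControl (0.0487 to 0.106), 8 to 10 in shDouble against shControl (0.02 to 0.05), 0 to 0 in shDouble against shMap3k7 (-0.0259 to 0.0228), 7 to 32 in shDouble against shChd1 (-0.0517 to -0.0147), 0 to 4 in the interaction (-0.146 to -0.0543) and 5 to 20 between the clones (-0.08 to -0.06). In shMap3k7 against shControl the count was 1 without shMap3k7 replicate 1 and 2 without shMap3k7 replicate 2. With the line as a replicate block, 0 members were called in shChd1 against shControl, shDouble against shMap3k7 and the interaction. The medians were 0.09, -0.01 and -0.12, so the pairing changed no call. For the fits with a library left out, the share of all genes called is not given, so their counts of members have no background here.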
